A study of Mus musculus with 8 samples.

Results

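The comparison described here set Tyro3-knockout cells, made in a background resistant to anti-PD1, against the parental cells of the same line, the mouse 4T1 line of triple-negative breast cancer. Samples were assigned to it by their labels: 2 knockout and 2 parental samples, which is 4 of the 8 samples of the study. The comparison itself was chosen with earlier results of these data known. The study measured total RNA by sequencing in 4 groups of 2 samples. The knockout cells carry a loss of Tyro3 in cells that had first become resistant to anti-PD1, which blocks a receptor that restrains T cells. The resistant cells have the control genotype, the Tyro3-overexpressing cells are parental cells with added Tyro3, and the parental cells have the control genotype and no resistance. The knockout cells thus differ from the parental cells by the passage through resistance as well as by the knockout, and these cannot be told apart in this comparison. All cells were grown in serum-containing medium without treatment, and the labels do not say whether the knockout line is 1 clone or whether the 2 samples of a group were separate cultures. The p-values therefore set each difference only against the scatter within groups, estimated over all 8 samples, and that scatter may be technical.

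Tyro3, Axl and Mertk are the TAM receptor tyrosine kinases, which bind the vitamin K-dependent ligands Gas6 and Pros1 on phosphatidylserine-bearing membranes. In myeloid cells the TAM receptors dampen inflammatory signalling, and in carcinoma cells they feed survival and growth pathways. The 4T1 line arose from a mammary tumour of a BALB/c mouse and secretes granulocyte growth factors and chemokines that draw myeloid cells.

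Read totals were 18001482 to 27261282 per sample, and low-count filtering left 14513 genes to test. Levels are given in CPM, counts scaled to a common library size after TMM normalization, and changes are log2 fold changes of knockout over parental cells from edgeR's quasi-likelihood fit of all 8 samples. A gene was called where its p, adjusted by the Benjamini-Hochberg method, fell under 0.05. Defining leukocyte markers were at or near 0: Ptprc, the pan-leukocyte antigen, had 3 reads over the knockout samples and 1 over the parental samples. The macrophage markers Adgre1 and Itgam and the T-cell marker Cd3e had no read in either group. Of 16 macrophage and neutrophil markers 4 were tested, and the summed level of the list was 82.9 to 87.5 CPM in knockout cells and 86.6 to 98.0 CPM in parental cells, mostly Cd14. The 12 lymphocyte markers summed to 0.155 to 0.202 CPM in knockout cells and 0.0513 to 0.119 CPM in parental cells. In such bulk samples fewer cells of a type and less RNA per cell cannot be told apart. Epithelial markers were present but not all unchanged. Krt8 stood at 510 and 532 CPM in knockout cells and 540 and 524 CPM in parental cells. The 12 tested markers of the carcinoma epithelium had a median log2 fold change of -0.04. Of these 3 were called higher, Elf3 (1.24) among them, and 2 lower, Krt7 (-5.48) and Krt18 (-0.49). The summed level of that list, mostly Krt8 and Krt18, was 842 and 855 CPM in knockout cells and 988 and 971 CPM in parental cells.

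Most differences between knockout and parental cells were small. The median absolute log2 fold change over all tested genes was 0.22 for knockout against parental cells. It was 0.60 for knockout against resistant cells, 0.61 for resistant against parental cells and 0.49 for overexpressing against parental cells; these contrasts share samples and are given side by side. Even so, 5274 genes, 36.3% of those tested, were called between knockout and parental cells. Of these 2624 (18.1%) were higher and 2650 (18.3%) were lower in knockout cells, and the median over all genes was 0.00028. The member counts of each gene list are to be read against these shares. Most calls were small: 3684 of the 5274 lay under 0.5 in absolute log2 fold change. A change of at least 1 was called for 629 genes (4.33%), of which 396 were higher and 233 were lower in knockout cells. With genes of fewer than 50 reads in 2 samples left out, that count was 413.

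Tyro3 (ENSMUSG00000027298, chromosome 2, 119797733 to 119818104 in GRCm38) was measured first, as the targeted gene. It stood at 3.81 and 3.99 CPM in knockout cells, at 20.9 ± 0.35 CPM in resistant and 105 ± 2.9 CPM in overexpressing cells (SD, n = 2 each), and at 25.6 and 24.4 CPM in parental cells. The knockout samples were the lowest of the 8, and the fall from the parental level was 2.68 on the log2 scale (SE 0.11, edgeR adjusted p = 8.15e-24). The knockout samples still held 98 and 79 Tyro3 reads, and the labels do not give the deleted part of the gene.

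Of the TAM receptors, Axl had the highest level per gene length. By the authors' deposited FPKM, which corrects for gene length, Axl stood at 278 ± 0.57 in knockout cells and 295 ± 4.8 in parental cells (SD, n = 2 each). On the same scale Tyro3 stood at 0.61 ± 0.020 in knockout cells and 3.92 ± 0.15 in parental cells. Axl had 1435 and 1432 CPM in knockout cells and 1508 and 1548 CPM in parental cells. That log2 difference of -0.09 (SE 0.04) was not called in the 8-sample fit (edgeR adjusted p = 0.075), and it was called with the 4 samples fitted alone (adjusted p = 0.036) or without either resistant sample (0.0149 and 0.0135). It was also called with DESeq2 (adjusted p = 0.0196), with at least 50 reads in 2 samples (edgeR adjusted p = 0.030) and, at -0.17, with the median of each chromosome removed (edgeR adjusted p = 0.0012). Mertk was near the floor, with 0.544 and 0.202 CPM in knockout cells against 0.771 and 0.667 CPM in parental cells, and was not called (edgeR adjusted p = 0.23). The ligand Pros1 (protein S) had 58.2 and 53.5 CPM in knockout cells against 30.6 and 31.9 CPM in parental cells, a rise of 0.84 (SE 0.08, edgeR adjusted p = 3.44e-12). Pros1 averaged 16.0 CPM in resistant and 28.6 CPM in overexpressing cells, so the knockout samples were the highest of the 4 groups. Of the list of TAM receptors and ligands, 5 of 8 genes were tested, 1 rose and 1 fell.

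Acute-phase genes were among the largest rises. Of 18 tested genes on the list of acute-phase proteins and STAT3 targets, 12 rose and 3 fell, with a median log2 fold change of 0.93. Cebpd, the C/EBP delta transcription factor of the acute-phase response, had 113 and 112 CPM in knockout cells, against 6.94 and 7.18 CPM in parental cells, a rise of 3.99 (SE 0.09, edgeR adjusted p = 3.4e-34). Lcn2 (lipocalin 2, an iron-siderophore binding protein) had 524 and 494 CPM in knockout cells, against 59.9 and 60.3 CPM in parental cells, a rise of 3.08 (SE 0.05). Saa3, a serum amyloid A protein made outside the liver, had 20.9 and 25.4 CPM in knockout cells against 2.08 and 1.80 CPM in parental cells. Socs3, the feedback inhibitor of STAT3 signalling, had 105 and 96.7 CPM in knockout cells against 22.3 and 20.8 CPM in parental cells. In each of these genes both knockout samples lay above both parental samples. Cebpd overlaps Spidr on the opposite strand, which averaged 22.9 CPM over the 8 samples, and the use of strand in counting is not given in the sources used here.

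Further members of that list rose by less, and 3 fell. Bcl3, a nuclear IkappaB-like coactivator, had 68.5 and 68.2 CPM in knockout cells against 14.0 and 16.7 CPM in parental cells, and rose by 2.15. Stat3 itself had 199 and 197 CPM in knockout cells against 86.3 and 89.7 CPM in parental cells, and rose by 1.17. The copper oxidase ceruloplasmin (Cp) rose by 0.93 and the central complement component C3 by 0.92. The members that fell were the kinase Pim1 (-0.50) and the receptor chains Il6ra (-0.36) and Il6st (-0.33). Steap4, a metalloreductase, had 34 and 13 reads in knockout cells against 1 and 0 in parental cells, a ratio of 37.96 with an exact 95% counting interval of 6.49 to 1531.

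The promoters of Socs3, Lcn2, Saa3 and Bcl3 are shown because these genes rose together and hold matches to textbook motifs of STAT, C/EBP and NF-kB factors. The sequences are from RefSeq (GRCm38.p6), 5′ to 3′ on the gene's strand, and run from 250 bases before to 50 bases after the transcription start. Capitals mark matches to TTCNNNGAA (STAT), TTNNGNAA (C/EBP) or GGGNNTTCC (kappaB) on either strand, and no matches of different motifs overlapped in these windows.
Socs3: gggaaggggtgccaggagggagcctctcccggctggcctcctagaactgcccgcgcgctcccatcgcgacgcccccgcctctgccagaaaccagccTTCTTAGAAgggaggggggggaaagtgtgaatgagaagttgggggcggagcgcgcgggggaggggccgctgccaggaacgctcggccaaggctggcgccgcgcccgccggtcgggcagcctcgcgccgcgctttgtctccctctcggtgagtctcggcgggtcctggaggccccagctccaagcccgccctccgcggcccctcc
Lcn2: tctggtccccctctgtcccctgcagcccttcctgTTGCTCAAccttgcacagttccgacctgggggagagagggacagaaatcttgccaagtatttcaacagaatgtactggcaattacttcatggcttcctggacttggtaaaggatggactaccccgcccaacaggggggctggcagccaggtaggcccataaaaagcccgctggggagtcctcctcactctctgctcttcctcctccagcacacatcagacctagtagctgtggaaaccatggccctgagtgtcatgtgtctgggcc
Saa3: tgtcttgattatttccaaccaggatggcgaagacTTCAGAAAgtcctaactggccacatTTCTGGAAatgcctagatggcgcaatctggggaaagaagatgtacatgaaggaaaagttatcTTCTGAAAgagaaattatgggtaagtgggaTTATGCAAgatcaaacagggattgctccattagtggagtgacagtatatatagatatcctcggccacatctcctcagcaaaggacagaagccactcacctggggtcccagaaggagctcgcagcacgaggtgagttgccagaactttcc
Bcl3: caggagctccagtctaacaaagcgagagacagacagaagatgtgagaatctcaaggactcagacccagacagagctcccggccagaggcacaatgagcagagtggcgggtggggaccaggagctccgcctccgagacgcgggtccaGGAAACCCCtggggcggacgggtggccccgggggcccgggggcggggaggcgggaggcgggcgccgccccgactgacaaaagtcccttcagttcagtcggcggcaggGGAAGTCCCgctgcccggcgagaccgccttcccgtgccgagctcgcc
Socs3 (chr11:117969317-117969616, minus strand) held 1 STAT match, which began at -154. Lcn2 (chr2:32387690-32387989, minus strand) held 1 C/EBP match at -216, and Saa3 (chr7:46715627-46715926, minus strand) held 4 C/EBP matches. Bcl3 (chr7:19822706-19823005, minus strand) held 2 kappaB matches, at -104 and 3. Promoters were at hand for 15 of the 18 tested members of the list: 2 held a STAT match, 8 a C/EBP match and 2 a kappaB match. Of the promoters of 10202 tested genes, 6.85% held a STAT match, 30.8% a C/EBP match and 7.42% a kappaB match. These matches describe letters in a window and were not tested as binding sites.

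Cytokines and chemokines were split. Of 13 tested interleukins, colony-stimulating factors and TNF family genes, 6 rose and 5 fell, with a median of -0.32, and of 12 tested chemokines 4 rose and 3 fell, with a median of 0.25. Csf3, the granulocyte colony-stimulating factor, had 634 and 650 CPM in knockout cells against 181 and 175 CPM in parental cells, a rise of 1.85 (SE 0.04, edgeR adjusted p = 1.99e-34). Cxcl1, a neutrophil chemoattractant, had 429 and 428 CPM in knockout cells against 84.3 and 80.8 CPM in parental cells, a rise of 2.38. Both genes were lower still in resistant cells, at 8.95 CPM for Csf3 and 11.9 CPM for Cxcl1. Il6 had 46 and 33 reads in the knockout samples against 0 and 1 in the parental samples, a ratio of 63.8 with an exact 95% counting interval of 11.1 to 2552. The alarmin Il33 rose by 2.36, to 3.92 and 4.64 CPM in knockout cells against 0.831 and 0.821 CPM in parental cells. The genes that fell included the subunit Il23a (-1.34), Il11 (-1.02), the epithelial cytokine Tslp (-0.59), Lif (-0.58) and the macrophage growth factor Csf1 (-0.58). Ccl20, a chemoattractant for CCR6-bearing lymphocytes, fell by 2.58 at a low level: 0.233 and 0.404 CPM in knockout cells and 1.96 and 1.80 CPM in parental cells.

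NF-kB genes went mostly the other way. Of 18 tested subunits and feedback genes, 4 rose and 12 fell, with a median of -0.37. Nfkbiz, an atypical nuclear IkappaB that acts with NF-kB at acute-phase genes, had 108 and 94.0 CPM in knockout cells against 15.7 and 16.2 CPM in parental cells, a rise of 2.66 (SE 0.08, edgeR adjusted p = 1.56e-29). Sod2 (0.72), Ier3 (0.42) and Nfkbia (0.28) also rose. Nfkb2, the precursor of the noncanonical subunit p52, had 150 and 147 CPM in knockout cells against 282 and 280 CPM in parental cells, a fall of 0.92 (SE 0.04). Traf1, a TNF receptor adaptor, had 27.3 and 30.9 CPM in knockout cells against 66.7 and 72.4 CPM in parental cells. Relb, Rela, Rel, Nfkbie and the deubiquitinase Tnfaip3 fell by 0.43 to 0.81. Of the promoters at hand for 14 of these 18 genes, 5 held a kappaB match.

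**Figure D1:**
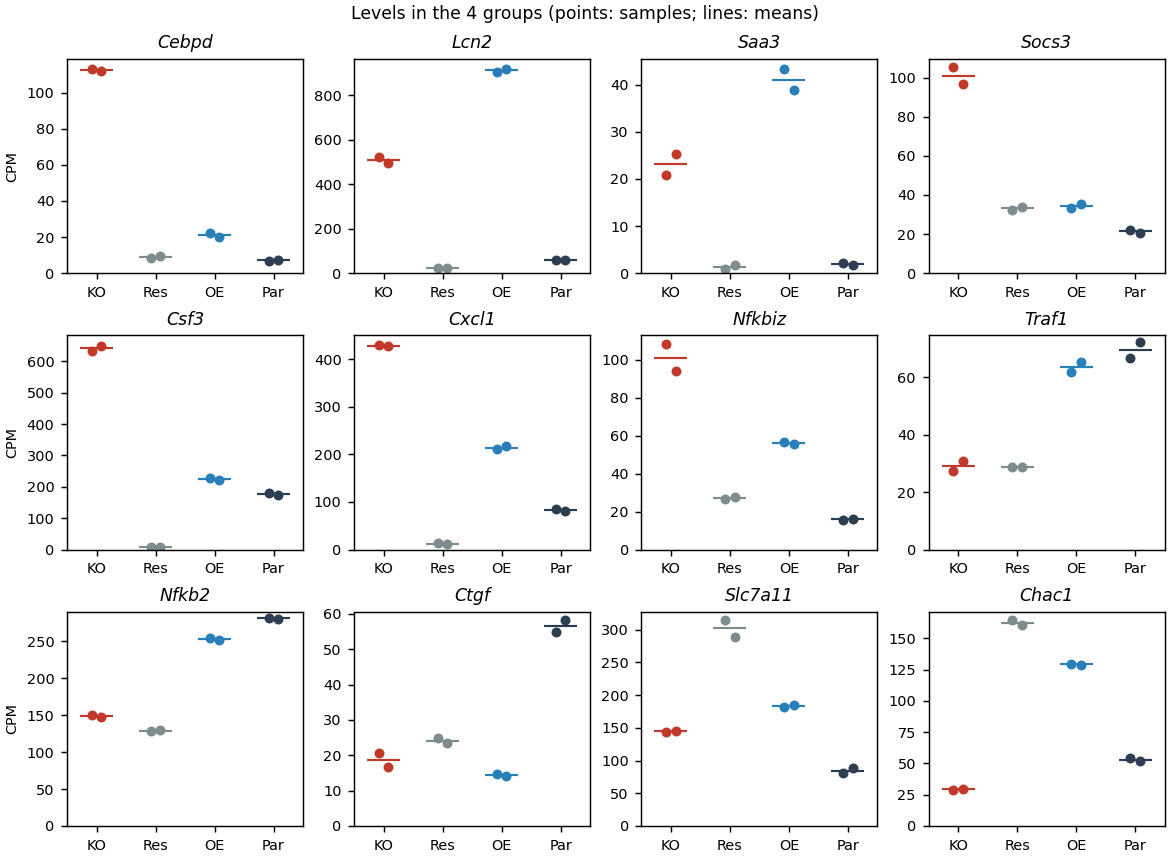
Level in CPM (linear axis from 0) of 12 genes in knockout (KO), resistant (Res), overexpressing (OE) and parental (Par) cells; points are the 2 samples of a group and lines their mean. Cebpd, Socs3, Csf3, Cxcl1 and Nfkbiz stand highest in knockout cells, while Lcn2 and Saa3 are higher still in overexpressing cells, and Chac1 is lowest in knockout cells.

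Set beside the other groups, some of these levels lay outside the range of the resistant and parental samples. Lcn2 averaged 509 ± 21 CPM in knockout cells, 24.2 ± 0.94 CPM in resistant cells, 913 ± 8.0 CPM in overexpressing cells and 60.1 ± 0.28 CPM in parental cells (SD, n = 2 each). Cebpd averaged 112 ± 1.0 CPM in knockout cells, 9.04 ± 0.53 CPM in resistant cells, 21.01 ± 1.6 CPM in overexpressing cells and 7.06 ± 0.17 CPM in parental cells (SD, n = 2 each). In both genes the knockout samples lay outside the range spanned by the resistant and parental samples. Coagulation factor V (F5, chromosome 1, 164151838 to 164220277) averaged 91.3 ± 3.9 CPM in knockout cells, 71.8 ± 2.8 CPM in resistant cells, 124 ± 0.12 CPM in overexpressing cells and 5.80 ± 0.44 CPM in parental cells (SD, n = 2 each). The 2 parental samples were the lowest of the 8 for F5.

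The 15 largest rises among genes of at least 5 CPM ranged from 3.07 to 6.09 on the log2 scale. Xlr, an X-linked lymphocyte-regulated gene of a family with near-identical copies, had 162 and 113 reads in knockout cells against 2 and 1 in parental cells. That ratio was 74.0, with an exact 95% counting interval of 25.1 to 361. Anxa8, a calcium-dependent membrane-binding annexin, had 26.2 and 25.6 CPM in knockout cells against 0.771 and 0.821 CPM in parental cells, a rise of 5.01 (SE 0.24, edgeR adjusted p = 8.24e-22). P2ry6, a receptor for UDP, had 10.4 and 10.1 CPM in knockout cells against 0.890 and 0.564 CPM in parental cells. Nos2, the inducible nitric oxide synthase, had 8.85 and 9.28 CPM in knockout cells against 0.653 and 1.03 CPM in parental cells. Serpinb2, the plasminogen activator inhibitor type 2, had 41.2 and 42.2 CPM in knockout cells against 5.40 and 4.57 CPM in parental cells. Cebpd, F5, Saa3, Selp and Lcn2, described in other paragraphs, were also among the 15. The rest were Urah, the growth factor Bmp5, the kinin receptor Bdkrb1, the actin-associated Synpo and Serpinb6b, whose reads could be shared with close paralogs.

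**Figure D2:**
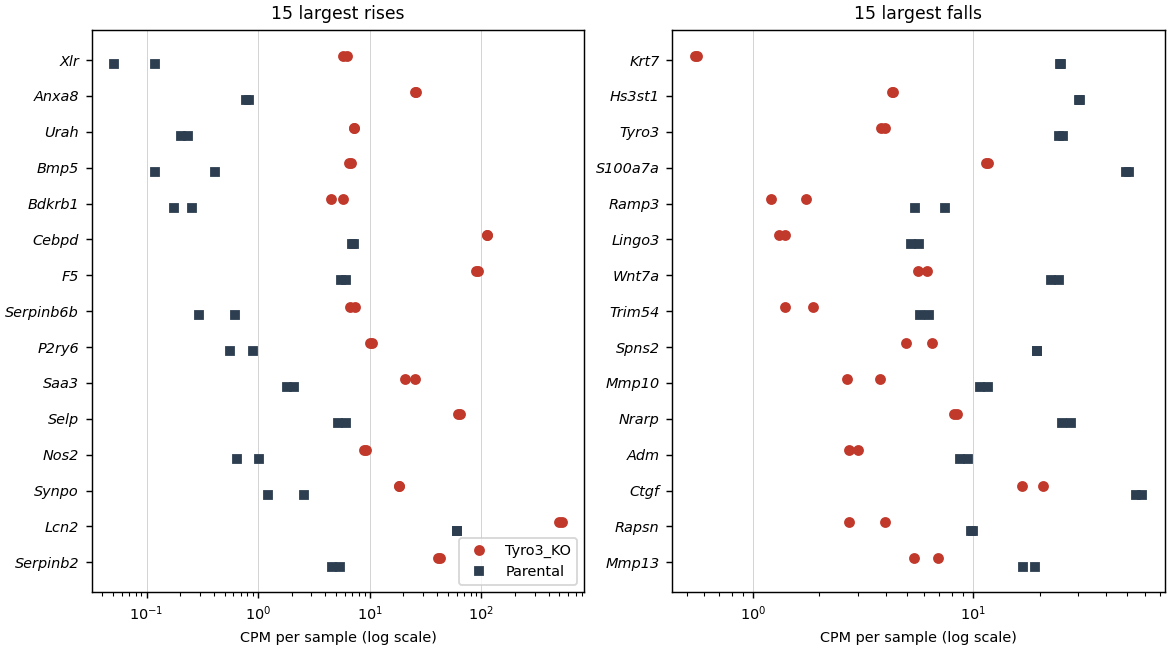
Level in CPM (log axis) of the 15 genes with the largest rises (left) and falls (right) in knockout (circles) against parental (squares) cells, 1 point per sample. The groups do not overlap for any of the 30 genes, which the rule that chose them required.

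On chromosome 1 the selectin genes Selp and Sele lie near F5, and these genes were higher in both knockout samples than in both parental samples. Selp (P-selectin, 164115264 to 164150026), an adhesion receptor known from platelets and endothelium, had 61.7 and 64.1 CPM in knockout cells, against 5.22 and 6.11 CPM in parental cells, a rise of 3.46 (SE 0.11, edgeR adjusted p = 1.36e-28). Sele (E-selectin, 164048234 to 164057677) had 9.48 and 9.94 CPM in knockout cells against 2.97 and 1.39 CPM in parental cells. Sele was picked after its values were seen, as a neighbour of Selp and F5. Selp was also low in resistant cells, at 6.49 CPM, and in overexpressing cells, at 6.08 CPM, while F5 was high in resistant and overexpressing cells. Of the endothelial markers, 1 of 4 tested rose (Tie1, 1.72) and 1 fell (Flt1, -0.57), and their summed level was 181 to 193 CPM in knockout cells and 189 to 199 CPM in parental cells.

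Falls were smaller than rises. The 15 largest among genes of at least 5 CPM ranged from -1.56 to -5.48. Krt7, a simple-epithelial keratin, had 0.544 and 0.555 CPM in knockout cells, against 24.99 and 24.6 CPM in parental cells, a log2 fold change of -5.48 (SE 0.19, edgeR adjusted p = 8.45e-27). Krt7 stood at 9.03 CPM in resistant and 9.15 CPM in overexpressing cells, so the knockout samples were the lowest of the 4 groups. Hs3st1, a heparan sulfate sulfotransferase, had 4.27 and 4.34 CPM in knockout cells against 30.2 and 30.5 CPM in parental cells. S100a7a (psoriasin family) had 11.4 and 11.7 CPM in knockout cells against 50.9 and 49.3 CPM in parental cells. Wnt7a, a secreted Wnt ligand, had 6.17 and 5.60 CPM in knockout cells against 24.5 and 22.5 CPM in parental cells. Tyro3, Mmp10, Mmp13 and Ctgf, described in other paragraphs, were also among the 15. The rest were Ramp3, Lingo3, Trim54, the Notch-regulated Nrarp, the vasoactive peptide adrenomedullin (Adm), Rapsn and Spns2. Spns2, a sphingosine-1-phosphate transporter, overlaps the far more abundant Mybbp1a on the opposite strand. The transcription factor Foxf2, picked after its values were seen, had no read in the 2 knockout or the 2 resistant samples against 60 and 82 reads in parental cells. Against a floor of 3 reads per sample Foxf2 was at least 29.0-fold lower in knockout cells.

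Matrix proteases and the cell-surface plasminogen system fell in part. Of 25 tested matrix metalloproteinases, ADAMTS proteases and TIMPs, 5 rose and 11 fell, with a median of -0.28; DESeq2 called 7 lower, as did edgeR without parental replicate 2. Mmp10 (stromelysin 2) had 3.77 and 2.67 CPM in knockout cells against 11.6 and 10.7 CPM in parental cells, a fall of 1.77 (SE 0.21, edgeR adjusted p = 1.9e-09). Its chromosome 9 neighbours Mmp13 (collagenase 3) and Mmp3 (stromelysin 1) fell as well: Mmp3 had 379 and 393 CPM in knockout cells against 649 and 675 CPM in parental cells. Mmp12 (macrophage elastase), in the same cluster, had 27 and 15 reads in knockout cells against 7 and 5 in parental cells, and its log2 fold change of 1.44 was not called in the 8-sample fit (edgeR adjusted p = 0.055) and was called with the 4 samples alone (0.046). Mmp12 was picked after its values were seen, and overlaps Mmp1b on the opposite strand. The urokinase Plau had 94.4 and 91.9 CPM in knockout cells against 227 and 217 CPM in parental cells, a fall of 1.25 (SE 0.05), and its receptor Plaur fell by 0.84. On the list of plasminogen activators and serpins 9 of 19 tested genes rose, with Serpinb2 and the protease nexin Serpine2 (0.87) among them, and 3 fell. The promoters of Mmp10, Mmp13 and Mmp3 are shown because each gene fell and each holds a match to the textbook AP-1 site, TGANTCA, in capitals, from RefSeq (GRCm38.p6) as above.
Mmp10: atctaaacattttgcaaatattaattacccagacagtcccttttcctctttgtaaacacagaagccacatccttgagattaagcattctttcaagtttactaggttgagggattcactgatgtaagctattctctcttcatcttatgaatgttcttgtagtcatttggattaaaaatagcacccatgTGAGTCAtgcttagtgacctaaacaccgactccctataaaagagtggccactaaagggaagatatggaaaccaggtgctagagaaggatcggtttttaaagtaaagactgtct
Mmp13: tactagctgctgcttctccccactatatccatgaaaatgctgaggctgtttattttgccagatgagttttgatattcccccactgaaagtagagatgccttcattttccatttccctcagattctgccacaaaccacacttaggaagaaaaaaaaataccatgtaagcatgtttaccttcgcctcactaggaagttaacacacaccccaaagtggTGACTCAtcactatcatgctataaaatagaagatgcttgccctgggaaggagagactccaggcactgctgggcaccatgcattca
Mmp3: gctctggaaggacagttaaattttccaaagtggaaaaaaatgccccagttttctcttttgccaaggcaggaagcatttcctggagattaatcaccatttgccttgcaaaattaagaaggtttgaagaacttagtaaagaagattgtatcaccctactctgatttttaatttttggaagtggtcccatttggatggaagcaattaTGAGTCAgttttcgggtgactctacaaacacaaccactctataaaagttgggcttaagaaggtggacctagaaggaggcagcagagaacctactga
The match began at -63 in Mmp10 (chr9:7502092-7502391, plus strand), at -35 in Mmp13 (chr9:7272264-7272563, plus strand) and at -46 in Mmp3 (chr9:7445572-7445871, plus strand). An AP-1 match stood in 5 of 17 promoters of this list, and in 5.1% of the 10202.

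Immediate early and ERK feedback genes leaned down. Of 30 tested, 6 rose and 15 fell, with a median of -0.10. The AP-1 subunit Fosl1 had 194 and 178 CPM in knockout cells, against 293 and 312 CPM in parental cells, a fall of 0.70 (SE 0.045, edgeR adjusted p = 3.66e-17). The AP-1 subunit Junb went up by 0.70, to 174 and 175 CPM in knockout cells against 110 and 105 CPM in parental cells; it overlaps Prdx2 on the opposite strand. Egr1 fell by 0.92 and the ERK inhibitor Spry4 by 0.50. The AP-1 subunit Fos rose by 1.43 at low counts, with 37 and 47 reads in knockout cells against 16 and 9 in parental cells. Its call was lost without a filter, and its rise was 0.98 without parental replicate 2 and 1.05 without knockout replicate 2. The EGF receptor ligand Hbegf averaged 39.7 ± 2.3 CPM in knockout cells and 82.0 ± 5.0 CPM in parental cells (SD, n = 2 each), a fall of 1.04.

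The YAP-TEAD list, genes driven by the Hippo pathway coactivators, was split by member: of 19 tested, 5 rose and 8 fell, with a median of -0.09. Ctgf and Cyr61, secreted matricellular proteins, fell. Ctgf had 20.7 and 16.6 CPM in knockout cells against 54.8 and 58.4 CPM in parental cells, a fall of 1.59 (SE 0.09, edgeR adjusted p = 1.78e-19). Cyr61 had 71.8 and 69.2 CPM in knockout cells against 148 and 143 CPM in parental cells. Tissue factor (F3) fell by 1.22, the muscle ankyrin repeat gene Ankrd1 by 0.92 and the Hippo kinase Lats2 by 0.58. Fstl1 (1.54), Arhgef17 (0.64) and the phosphatase Ptpn14 (0.39) rose, and the coactivator Yap1 rose by 0.15. The coactivator Wwtr1 (0.03) and the DNA-binding factor Tead1 (0.00) were not called. The promoters of Cyr61 and Ankrd1 are shown with the TEAD core GGAATG, on either strand, in capitals.
Cyr61: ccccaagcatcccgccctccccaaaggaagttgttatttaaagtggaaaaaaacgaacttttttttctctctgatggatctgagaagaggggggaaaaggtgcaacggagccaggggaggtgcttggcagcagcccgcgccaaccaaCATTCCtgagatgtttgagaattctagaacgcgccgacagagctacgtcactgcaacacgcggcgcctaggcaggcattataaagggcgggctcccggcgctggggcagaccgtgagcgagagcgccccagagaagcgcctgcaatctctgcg
Ankrd1: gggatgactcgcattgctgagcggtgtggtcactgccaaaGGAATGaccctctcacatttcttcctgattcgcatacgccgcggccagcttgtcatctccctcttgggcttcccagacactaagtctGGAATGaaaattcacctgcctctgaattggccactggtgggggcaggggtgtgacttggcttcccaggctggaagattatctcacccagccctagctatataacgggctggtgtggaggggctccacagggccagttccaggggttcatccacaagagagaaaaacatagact
Cyr61 (Ccn1 in RefSeq, chr3:145649936-145650235, minus strand) held 1 match at -103, and Ankrd1 (chr19:36119795-36120094, minus strand) held 2, at -210 and -123. A match stood in 10 of 14 promoters at hand for this list, and in 1228 of the 10202 promoters.

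Cholesterol synthesis genes leaned down. Of 24 tested cholesterol synthesis genes, 1 rose (Ebp, 0.18) and 15 fell, with a median of -0.39. The call of Ebp was lost when either knockout sample, parental replicate 2 or either overexpressing sample was left out. Insig1, the sterol-sensing anchor protein, had 40.1 and 40.9 CPM in knockout cells against 70.3 and 64.4 CPM in parental cells, a fall of 0.73 (SE 0.07, edgeR adjusted p = 3.08e-11). The isomerase Idi1 fell by 0.87, Msmo1 by 0.70 and Hmgcs1 by 0.69. The median of this list was -1.76 in resistant and -1.46 in overexpressing cells, each against parental cells. On the 14 chromosomes whose own medians lay between -0.04 and 0.12, 1 of 14 members rose and 7 fell (median -0.15).

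The amino acid response leaned down. Of 33 tested ATF4 target genes, 3 rose and 20 fell, with a median of -0.21. Atf4 itself had 243 and 241 CPM in knockout cells, against 341 and 353 CPM in parental cells. Chac1, a glutathione-degrading enzyme, had 28.7 and 29.9 CPM in knockout cells against 54.0 and 51.6 CPM in parental cells, a fall of 0.85 (SE 0.06, edgeR adjusted p = 2.16e-15). The arginine transporter Slc7a1 fell by 0.79 and the serine synthesis enzyme Psat1 by 0.61. Slc7a11, the cystine transporter, rose by 0.77, with 144 and 145 CPM in knockout cells against 81.0 and 88.5 CPM in parental cells. Its partner chain Slc3a2 had 179 and 184 CPM in knockout cells and 174 and 189 CPM in parental cells, and was not called. Slc7a11 averaged 302 CPM in resistant and 183 CPM in overexpressing cells, above the knockout samples, whereas Chac1 averaged 162 CPM in resistant and 129 CPM in overexpressing cells and was lowest in knockout cells.

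The list of ferroptosis suppressors and glutathione genes leaned up: of 19 tested, 12 rose and 3 fell, with a median of 0.22. It also holds genes that are not suppressors, such as Acsl4, Lpcat3, Tfrc, Ncoa4 and Chac1, so these are not counts of suppressors alone. The 3 that fell were Chac1 (-0.85), Gpx4 and the glutathione synthesis enzyme Gss (-0.54), which overlaps Acss2 on the opposite strand. Ferritin heavy chain (Fth1) had 5213 and 5095 CPM in knockout cells against 4295 and 4222 CPM in parental cells, a rise of 0.28 (SE 0.04, edgeR adjusted p = 4.9e-07). Gpx4, the lipid peroxide-reducing enzyme, fell by 0.33, with 337 and 333 CPM in knockout cells against 427 and 417 CPM in parental cells. Of 32 tested NRF2 targets 15 rose and 6 fell, with a median of 0.11, the aldehyde dehydrogenase Aldh3a1 rising by 0.82. Of 24 tested glycolysis genes 12 rose and 3 fell, with a median of 0.18. The glucose transporter Slc2a3 rose by 3.41, to 3.73 and 3.99 CPM in knockout cells against 0.297 and 0.410 CPM in parental cells, while Slc2a1 fell by 0.40. The hypoxia list had 10 genes higher and 5 lower of 23, with a median of 0.11. On it Bnip3 (0.78) and Pfkfb3 (0.75) rose, and Adm (-1.66) and Ddit4 (-0.84) fell. Hif1a stood at 434 CPM in each knockout sample against 263 and 254 CPM in the parental samples.

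Interferon-linked genes leaned up. Of 36 tested genes of the type I interferon response, 16 rose and 3 fell, with a median of 0.33. The same list had a median of 0.72 in resistant and 2.80 in overexpressing cells, each against parental cells. The membrane protein Ifitm3 had 360 and 336 CPM in knockout cells, against 199.9 and 183 CPM in parental cells, a rise of 0.86. The RNA sensor Ifih1 rose by 0.99, and Ifit2 fell by 0.84. Of 22 tested MHC class I and peptide-loading genes 9 rose and 4 fell, with a median of 0.12. The peptide transporter Tap2 (0.99) and the immunoproteasome subunit Psmb8 (0.86) rose. B2m, the light chain of class I, had 433 and 428 CPM in knockout cells against 592 and 638 CPM in parental cells, a fall of 0.52 (SE 0.04). Cd274, which encodes PD-L1, had 1.28 and 1.21 CPM in knockout cells against 1.96 and 1.85 CPM in parental cells, and was not called (edgeR adjusted p = 0.11). Of 12 tested complement genes 5 rose and 0 fell, C4b (2.30) and C1ra (1.05) among them.

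**Figure D3:**
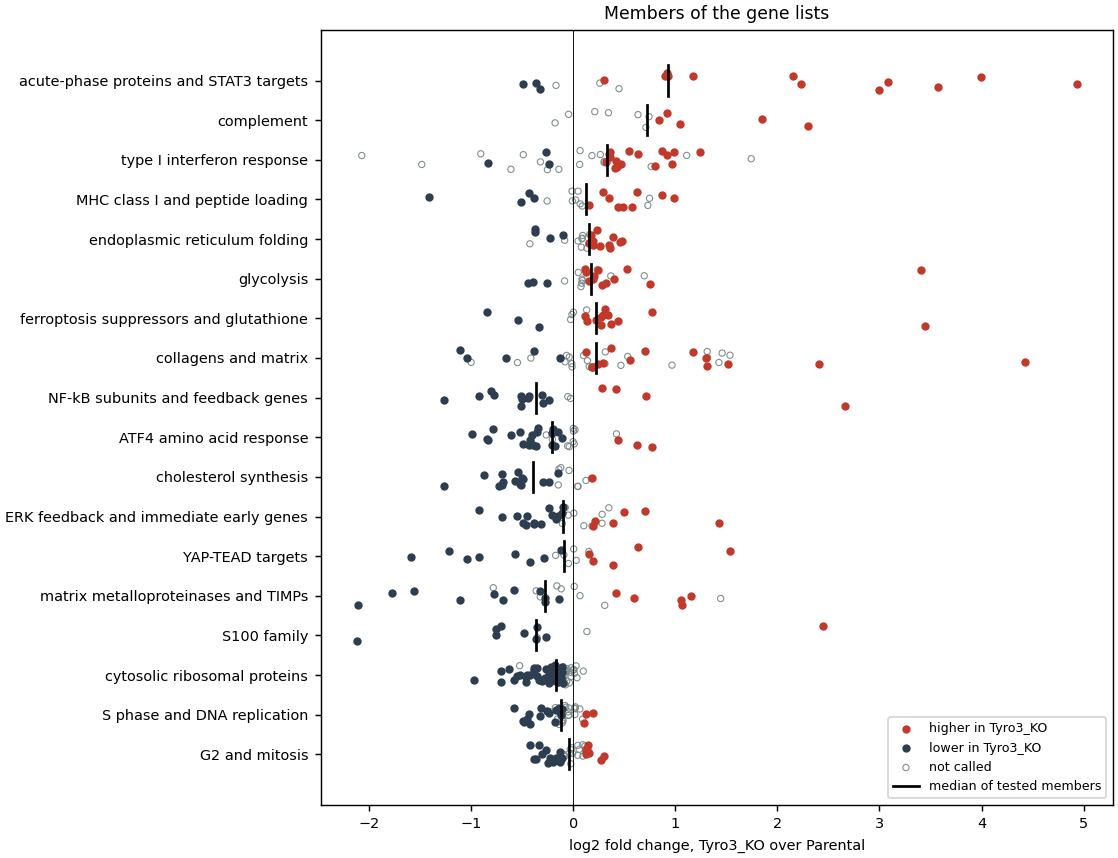
Log2 fold change of knockout over parental cells for each tested member of 18 gene lists; filled points passed the adjusted p threshold, open points did not, and black ticks are the medians of the tested members. The acute-phase list has its median at 0.93, and the NF-kB and cholesterol lists have theirs at -0.37 and -0.39.

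Ribosomal protein and S-phase genes leaned down. Of 83 tested cytosolic ribosomal protein genes, 0 rose and 53 fell in the edgeR fit, with a median of -0.17; DESeq2 and several other settings called 1 higher. Rps27 had 268 and 264 CPM in knockout cells against 413 and 458 CPM in parental cells, a fall of 0.71 (SE 0.05, edgeR adjusted p = 2.78e-17). Gene length moved with these differences: the median log2 fold change was -0.16 over 1184 tested genes under 1000 bases, -0.05 from 1000 to 2000 bases, -0.02 from 2000 to 3000 bases, 0.01 from 3000 to 5000 bases and 0.03 over 5257 genes of 5000 bases or more. By the deposited gene length, 15 of the 83 ribosomal protein genes were under 1000 bases. The 1169 tested genes under 1000 bases that are not ribosomal protein genes had a median of -0.15. The part of length in the ribosomal protein result was not tested, and reads of these genes could be shared with near-identical pseudogenes. Of 39 tested S-phase genes 3 rose and 17 fell (median -0.12), and of 37 G2 and mitosis genes 7 rose and 15 fell (median -0.04). On the 14 chromosomes whose own medians lay between -0.04 and 0.12, 1 of 23 S-phase genes rose and 7 fell (median -0.10). There 6 of 21 G2 and mitosis genes rose and 5 fell (median 0.06). Without parental replicate 1, or without knockout replicate 1, 4 of the G2 and mitosis genes were called higher, and without parental or knockout replicate 2 only 1 S-phase gene was. The same 2 lists stood at -1.73 and -2.31 in resistant cells against parental cells. Ube2c, the conjugating enzyme of the anaphase-promoting complex, had 348 and 338 CPM in knockout cells against 465 and 457 CPM in parental cells. The CDK inhibitor Cdkn2c rose by 0.62, with 376 and 381 CPM in knockout cells against 252 and 239 CPM in parental cells.

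Abundant genes changed as well. By difference in mean CPM, the 8 largest rises were Fth1, Slpi, Spp1, Fn1, Ncl, Serpine2, Ctnnb1 and Csf3. Slpi, a secreted leukocyte protease inhibitor, had 1075 and 1124 CPM in knockout cells against 449 and 385 CPM in parental cells, a rise of 1.40 (SE 0.05, edgeR adjusted p = 2.78e-25). Fibronectin (Fn1) had 1424 and 1413 CPM in knockout cells against 842 and 906 CPM in parental cells, and beta-catenin (Ctnnb1) had 1630 and 1656 CPM against 1175 CPM in each parental sample. The 8 largest falls were Ctsl, Odc1, Lgals1, S100a6, Actb, Vim, Cfl1 and mt-Nd1. The lysosomal protease Ctsl had 2599 and 2645 CPM in knockout cells against 4313 and 4350 CPM in parental cells, a fall of 0.72 (SE 0.04). Ornithine decarboxylase (Odc1) had 2269 and 2346 CPM in knockout cells against 3716 and 3614 CPM in parental cells. The call of mt-Nd1 (-0.14) was lost with DESeq2 (adjusted p = 0.21), without a filter, without parental replicate 2 and without knockout replicate 2 (edgeR adjusted p = 0.21, 0.36 and 0.30).

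Matrix, adhesion and cytoskeletal lists were mixed. Of 42 tested collagens and matrix genes 14 rose and 5 fell, with a median of 0.22. Col12a1, a fibril-associated collagen, had 48.0 and 46.4 CPM in knockout cells against 8.96 and 8.82 CPM in parental cells, a rise of 2.41 (SE 0.10, edgeR adjusted p = 1.52e-24). Col7a1 rose by 1.18, and thrombospondin 1 (Thbs1) fell by 1.04. Of 17 tested integrins 6 rose and 6 fell. Itgb7 had 225 and 222 CPM in knockout cells against 85.7 and 75.9 CPM in parental cells, a rise of 1.47, and Itga1 (-0.83) and Itgb3 (-0.79) fell. Of 11 tested S100 family genes 1 rose and 8 fell, and 10 of the 11 lie on chromosome 3. Without parental replicate 1, 5 fell, and without knockout replicate 2, 2 rose. S100a10 had 266 and 264 CPM in knockout cells against 466 and 429 CPM in parental cells. Of 14 tested keratins and intermediate filament genes 1 rose and 7 fell, Vim by 0.32 and Krt18 by 0.49 among them.

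The calls were spread unevenly over the chromosomes. On chromosome 1, 459 of 864 tested genes (53.1%) were higher and 25 (2.89%) were lower in knockout cells, with a median log2 fold change of 0.28. On chromosome 19, 18 of 479 genes were higher and 265 (55.3%) lower, with a median of -0.28. On chromosome 13, 29 of 557 genes were higher and 263 (47.2%) lower, with a median of -0.30. Chromosome 2 (median -0.16), chromosome 3 (-0.18) and chromosome 5 (-0.13) also lay below 0, with 37.4%, 34.1% and 31.8% of their tested genes lower. These 6 chromosomes were singled out after their values were seen. On the other 14 the medians ran from -0.04 to 0.12, and these were not free of shifts. Chromosome 14 had 31.0% of its tested genes higher and 8.62% lower, and chromosome 4 had 27.8% and 7.34%. Chromosome 8, the lowest of the 14, had 11.3% higher and 18.1% lower. The window from 0 to 20 Mb of chromosome 14 had a median of 0.37.

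The chromosome medians were close between these samples. The pairs reuse the same 2 knockout and 2 parental samples, which may not be separate cultures. Their closeness does not show that the shifts recur in other cultures or clones. Over the 4 pairs of a knockout and a parental sample the median of chromosome 1 ran from 0.25 to 0.28, that of chromosome 13 from -0.29 to -0.26 and that of chromosome 19 from -0.28 to -0.27. Between the 2 samples of a group no chromosome median exceeded 0.019 in size. In windows of 20 Mb along chromosome 1 all 10 medians were above 0, from 0.22 to 0.35. The 3 windows of chromosome 19 and the 6 of chromosome 13 were all below 0. On chromosome 3 the windows below 80 Mb lay between -0.06 and 0.04 and those above it between -0.27 and -0.20, and on chromosome 2 the lowest was -0.30, from 140 to 160 Mb. In resistant against parental cells chromosome 1 stood at 0.02, chromosome 13 at -0.33 and chromosome 19 at -0.15, and in overexpressing against parental cells they stood at 0.19, 0.00 and -0.13.

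**Figure D4:**
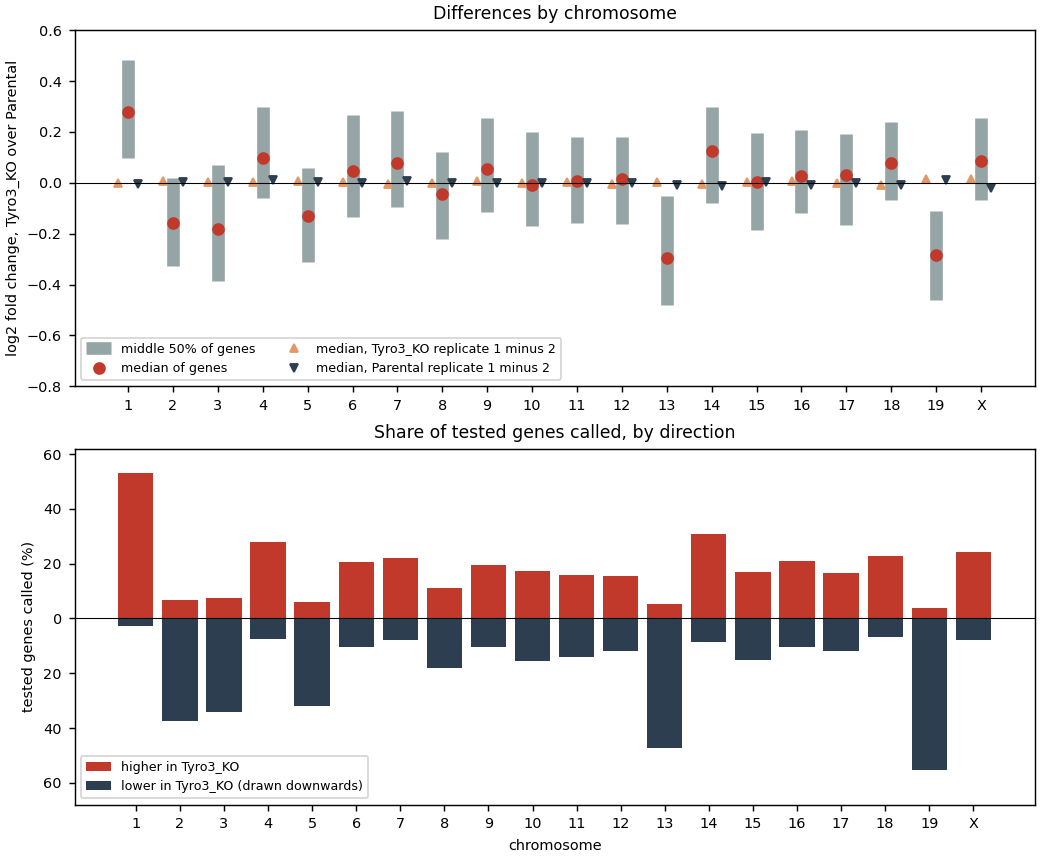
Top, median (circles) and middle 50% (bars) of the log2 fold change of knockout over parental cells by chromosome, with the medians of replicate 1 minus replicate 2 within each group (triangles); bottom, percent of tested genes called higher (upwards) and lower (downwards). Chromosome 1 has its median at 0.28 and chromosomes 13 and 19 have theirs at -0.30 and -0.28, while the within-group medians stay within 0.019 of 0.

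The 6 chromosomes hold 32.7% of the tested genes and 42.4% of the calls. With the median of each chromosome taken out of the knockout samples, a setting chosen after seeing the data, 4201 genes were called, 3512 of them among the 5274. Nucleolin (Ncl, chromosome 1), with 3107 and 3045 CPM in knockout cells against 2486 and 2620 CPM in parental cells, was then at -0.01 and no longer called. Ccnb1, Kif11 and Kif20b, mitotic genes on chromosomes 13 and 19, and Actb on chromosome 5 were then no longer called. The chromosome 19 gene Slc3a2 was then called higher, at 0.29 (edgeR adjusted p = 1.05e-06). Counts that moved by over 1.5 times in that setting were the lower members of the G2 and mitosis (9), S100 (4), NRF2 (3), fatty acid synthesis (3) and TAM (2) lists and of the macrophage and neutrophil markers (0). Counts of higher members that moved were those of the heat shock (3), endothelial (2), S-phase (1), EGF (1), BCL2 (1) and cholesterol (0) lists. On the other 14 chromosomes 8 of the 11 tested acute-phase members rose and 1 fell, with a median of 1.17. The cause of the chromosome shifts was not tested.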

How the data were processed

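Total RNA of 8 samples of the 4T1 line was sequenced, 2 per group, grouped by phenotype and genotype in the labels. The authors deposited 3 tables of raw read counts per gene with FPKM values, per the file headers. The submitters' processing notes name CASAVA, STAR and DESeq2 without roles, and the builds mm10 and GRCm38. How reads were counted, and whether by strand, is not given in the sources used here. Joining by gene identifier gave 24677 genes, with 0 reads for any gene that a sample's table lacked. The deposited FPKM were used only to compare the TAM receptors per length.

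Groups were compared with edgeR 4.0.16 in R 4.3.3 (glmQLFit, glmQLFTest, TMM scaling, filterByExpr) on the deposited counts of all 8 samples, with Benjamini-Hochberg adjustment and a threshold of 0.05. The SE is the log2 fold change divided by the square root of F. The test was tested on simulated data. The common dispersion was 0.00123, and replicates differed by more than counting noise (chi-square per degree of freedom of 3.30 in knockout and 4.62 in parental samples). A fold against a group with no read was set against 3 reads per sample, and intervals are exact 95% binomial intervals of counting error only.

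Genes, 49 gene lists and the comparison were chosen with earlier results of these data known. Named genes were Tyro3, Axl, Mertk, Gas6 (not analysed here), Pros1, Slc7a11, Slc3a2, Gpx4 and Cd274, the 15 largest rises and 15 largest falls among called genes of at least 5 CPM in the higher group without overlap and outside predicted-gene, clone and Rik symbols, the 8 largest differences in CPM per direction, and up to 4 called members per list of at least 1 CPM. Other list members named, the promoters and the motifs were chosen after their values were seen. Symbols under older names were matched through the RefSeq gene table. Promoter sequences were matched for 10202 of 14513 tested genes. The fit was repeated with upper-quartile or RLE scaling, with DESeq2 1.42.0, without a filter, with at least 50 reads in 2 samples, with the 4 samples alone, a replicate block, a minimum log2 size of 1, genes listed in all 3 tables, the chromosome median removed, and each sample left out.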

Additional observations from a re-analysis of the deposited data

How the results depend on the processing

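The count of called genes was 5280 with RLE scaling, 5331 with upper-quartile scaling (2800 higher and 2531 lower), 3840 with DESeq2, 4002 with no filter, 5133 with the 4 samples alone and 5272 with genes listed in all 3 tables, against 5274. With each sample left out in turn it ran from 4109 to 5447. With a minimum log2 size of 1 required, 629 genes were called, 396 higher and 233 lower. That count was 448 with DESeq2 and 413 with at least 50 reads in 2 samples, where fewer genes are tested. Same-numbered samples did not deviate together (correlation 0.026), so the numbers do not pair them, and the fit with the replicate block called 5204 genes, or 4650 with the 4 samples alone. With the chromosome median removed 4201 genes were called, 2159 higher and 2042 lower. Of the genes named by the rule or after seeing values, Ncl was the only reversal over these settings, at -0.0080, with the chromosome median removed. Of 96 counts of list members in either direction, 12 moved by over 1.5 times with the chromosome median removed, 11 with DESeq2, 11 with no filter and none with the replicate block. The medians of chromosomes 1, 13 and 19 ran from 0.27 to 0.30, from -0.31 to -0.28 and from -0.30 to -0.27 over the settings other than their removal. Depth limits genes of a few reads, whose folds have wide counting intervals.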

Other observations

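Further lists are given here by their counts, to be read against the 18.1% of all tested genes that were higher and the 18.3% that were lower. Of 21 tested Wnt ligands and targets 8 rose and 3 fell, with the receptors Fzd1 (1.58) and Fzd7 (0.74) higher in knockout cells. Of 26 tested genes of endoplasmic reticulum folding 12 rose and 4 fell, with Ero1l, an oxidase of disulfide formation, at 164 and 170 CPM in knockout cells and 119 and 121 CPM in parental cells. Of 15 tested G1 cyclins and CDK inhibitors 3 rose and 10 fell, and of 12 BCL2 family genes 2 rose and 7 fell, with Mcl1 (-0.43) and Bcl2l1 (-0.42) lower in knockout cells. Without 1 knockout or parental sample some of these counts were smaller: 2 lower for endoplasmic reticulum folding (each of the 4 samples), 6 lower for the G1 genes (knockout replicate 1 or parental replicate 2), 1 lower for the Wnt list (knockout replicate 1) and 3 lower for the BCL2 family (knockout or parental replicate 1), or 4 without either overexpressing sample. Of 10 annexins 3 rose and 6 fell. Of 7 purinergic receptors 3 rose and 0 fell in the edgeR fit, P2ry6, P2ry2 (1.11) and Adora1, at 21.04 ± 2.9 CPM in knockout cells and 9.24 ± 1.0 CPM in parental cells (SD, n = 2 each). Counts in both directions were close for p53 targets (8 higher and 8 lower of 27), heat shock chaperones (6 and 8 of 24), lysosome and autophagy genes (7 and 10 of 29) and epithelial adhesion genes (6 and 7 of 18). Without parental replicate 1 the p53 targets had 4 higher, and without knockout replicate 1 the epithelial adhesion genes had 4 lower. Of 17 mesenchymal transition genes 8 rose and 3 fell, of 15 plasma membrane amino acid transporters 3 rose and 6 fell, and of 22 fatty acid synthesis genes 4 rose, or 2 with any 1 of the knockout and parental samples left out, and 7 fell. With the chromosome median removed 3 of the fatty acid synthesis genes were lower, and on the 14 chromosomes other than 1, 2, 3, 5, 13 and 19, 3 of the 10 tested there rose and 0 fell in the edgeR fit. The immune checkpoint ligands had 3 higher and 1 lower of 8, the EGF family genes 2 and 2 of 12, the BMP and Id genes 3 and 2 of 15 and the mitochondrially encoded genes 3 and 1 of 13. The interferon-inducible GTPases had 2 higher of 14, or 1 without knockout replicate 2, and the clustered histones had 1 lower of 17, or 2 without knockout or parental replicate 2. Counts of 1 to 3 on the checkpoint, EGF, BMP and mitochondrial lists changed by 1 at most when a sample was left out.

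Some genes of lineage interest moved at low counts. Krt14, a basal keratin, had 15 and 19 reads in knockout cells and none in parental cells. Set against 3 reads per sample, Krt14 was at least 4.64-fold higher in knockout cells. Trp63, a basal transcription factor, had 21 and 23 reads in knockout cells against 2 and 1 in parental cells, a ratio of 11.8 with an exact 95% counting interval of 3.80 to 59.6. Rgs5, known from pericytes, had 42 and 31 reads in knockout cells none in resistant cells, 83 and 114 in overexpressing cells and none in parental cells. These genes were picked after their values were seen. Of 7 tested pericyte and fibroblast markers 4 rose and 0 fell in the edgeR fit, and 1 fell without parental replicate 2. The summed level of the 14 pericyte and fibroblast markers was 122 and 125 CPM in knockout cells and 107 and 105 CPM in parental cells.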
